A study of Mus musculus with 12 samples.

Results

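The enzymes examined were 9 of the TCA cycle, chosen by gene symbol in a table of 32285 mouse genes. They were Cs, Idh3a, Idh3b, Idh3g, Idh2, Ogdh, Dlst, Fh1 and Mdh2, each matched to a single gene, and all 9 passed the filter on low counts. Subunits of succinate dehydrogenase were left aside. Poly(A)-selected RNA came from cultures of wild-type mouse macrophages differentiated from bone marrow (BMDMs). A set of cultures was given itaconic acid, here IA, at 5 mM for 16 h. The other acids, malonic (MA) and methylsuccinic (MetSA), were given at the same dose and time, and the remaining cultures had medium alone (M). Each of the 4 groups held 3 biological replicates. The sources used here do not say whether separate animals supplied them, so the p-values measure the spread between these cultures.

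The TCA cycle runs in the mitochondrial matrix and oxidises acetyl groups to carbon dioxide, passing electrons to NAD+ and, at succinate dehydrogenase, to the respiratory chain. Citrate synthase opens it, isocitrate and 2-oxoglutarate dehydrogenases carry out its decarboxylations, and fumarase and malate dehydrogenase return the carbon to oxaloacetate. In activated macrophages the cycle is known to be rewired, and itaconate is drawn off from cis-aconitate, between citrate and isocitrate. Malonic acid is a classical competitive inhibitor of succinate dehydrogenase, and itaconate inhibits the same enzyme more weakly. Methylsuccinic acid has the carbon skeleton of itaconic acid without its carbon-carbon double bond.

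The 12 libraries held 46892488 to 54252486 counts, and the members had between 1002 and 9986 counts in any library. Macrophage markers summed to 24580 to 33230 CPM (counts scaled to a common library size), whereas erythroid markers summed to at most 0.22 CPM and B cell markers to at most 0.773 CPM. Neutrophil markers summed to 17.4 to 36.0 CPM and stromal markers to 5.53 to 31.0 CPM. The stromal sums were uneven within groups, at 8.78 to 31.0 CPM in M alone. Of 8 macrophage markers, 6 rose after IA, 2 rose and 1 fell after MA, and 7 rose after MetSA. Over all genes 35.2%, 20.3% and 21.2% were called in these comparisons, with 17.9%, 10.1% and 12.6% higher. The markers that rose after MA were Mertk and Lyz2 (log2 fold changes 0.695 and 0.314). Lyz2 held most of the macrophage sum, with means of 14970 CPM in IA, 21290 CPM in MA, 17510 CPM in MetSA and 17120 CPM in M. Fcgr1 averaged 1748 CPM in IA, 312.1 CPM in MA and 1155 CPM in MetSA against 307.2 CPM in M. Adgre1 had a log2 fold change of -0.43 after MA, 0.19 after IA and 0.27 after MetSA. Single markers of other cell types also moved with the acids. The T cell marker Cd4, the only 1 of 4 in its list that passed the filter, was at 25.4 CPM in IA, 10.1 CPM in MA and 23.8 CPM in MetSA against 13.2 CPM in M. The dendritic cell list summed to 5.75 to 6.48 CPM in IA, 1.23 to 1.63 CPM in MA and 2.17 to 3.47 CPM in MetSA against 1.29 to 1.62 CPM in M, where Xcr1 rose after each acid and Flt3 and Zbtb46 were not called. The osteoclast list (2 of 4 tested) summed to 7.09 to 8.23 CPM in IA, 8.38 to 9.66 CPM in MA and 6.22 to 6.76 CPM in MetSA against 4.46 to 5.43 CPM in M. In that list Acp5 rose after each acid, while Ctsk was not called after any of them. No neutrophil, stromal, B cell or mast cell marker was called against M. Transcripts of the mitochondrial genome took 0.756 ± 0.073% of counts in IA, 1.09 ± 0.037% in MA, 0.957 ± 0.28% in MetSA and 1.24 ± 0.11% in M (SD, n = 3 each). MetSA replicate 3 stood apart from its group at 1.28%. The fold changes of the members after MetSA against M, and some other values after MetSA, are set beside those without it. The marker values are given with it only. The part of these differences in the results was not tested.

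Levels of the members differed more between enzymes than between treatments. On a per-length scale, as CPM per kilobase of annotated exon averaged over 12 libraries, Ogdh was highest at 32.3 and Cs followed at 28.4. Mdh2 (24.8), Idh3g (24.2) and Idh3b (23.2) lay close together, and their ranges of group means overlapped. Idh2 (19.3) reached their range in M alone. Dlst (10.4) and Fh1 (10.02) came next, the last pair with overlapping group means, and Idh3a was lowest at 5.27. Exon length was taken over all annotated transcripts, so a gene with rarely used long exons, such as Dlst with 9559 annotated bases, reads low on this scale. All later values are CPM per gene or log2 differences in it.

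In the test for any difference among the 4 groups, 4 of the 9 members were called (Idh2, Idh3a, Fh1 and Ogdh), where 43.8% of the 14113 genes tested were. Against M, 4 members fell after IA, 1 after MA and 2 after MetSA, and none rose. Over all genes, 35.2% were called after IA (17.9% higher, 17.3% lower), 20.3% after MA (10.1% higher, 10.1% lower) and 21.2% after MetSA (12.6% higher, 8.53% lower). Each of these comparisons uses the same 3 M libraries. The median log2 fold change of the members was -0.14 after IA, -0.02 after MA and -0.08 after MetSA, beside -0.03, -0.02 and -0.01 over all genes tested. The median absolute log2 fold change of the members was 0.136, 0.023 and 0.078 in the same order, beside 0.247, 0.175 and 0.185 over all genes. With upper-quartile scaling 5 members were called after IA and 3 after MetSA, and the share of all calls that were higher was 34.8% for IA (50.9% with TMM scaling) and 42.2% for MetSA (59.7%). In RNA from a whole culture, fewer cells of a type and less RNA per cell cannot be told apart.

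**Figure D1:**
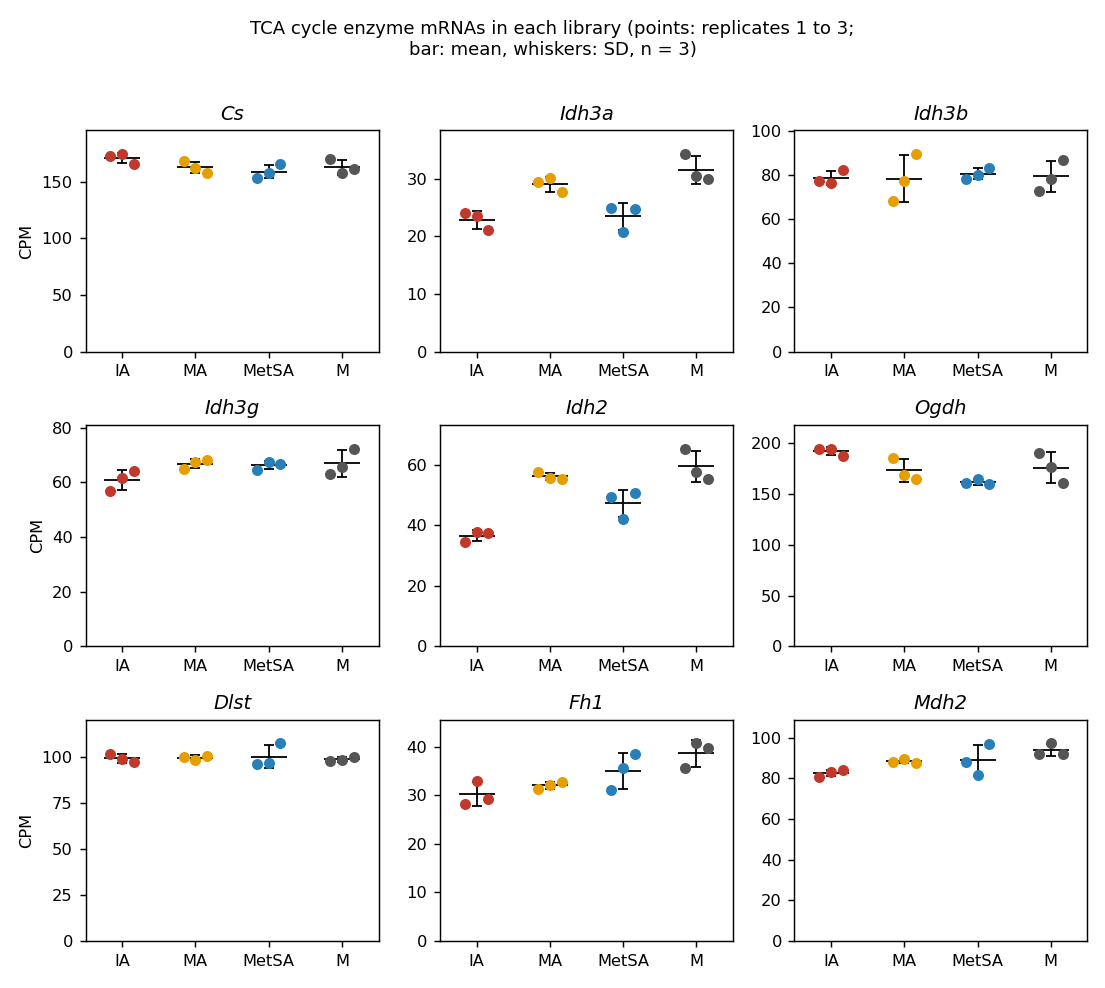
Expression of each of the 9 enzymes in CPM (y axis, from 0) in the 3 libraries of IA, MA, MetSA and M (x axis). Points are libraries, bars are group means and whiskers are SDs (n = 3). Idh2 sits at 34.4 to 37.8 CPM in IA, below every other library, while Dlst stays between 96.5 and 107.6 CPM throughout.

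Idh2, the mitochondrial NADP-dependent isocitrate dehydrogenase, which makes NADPH in the matrix, changed most. It had 34.4, 37.8 and 37.4 CPM in IA, 57.6, 55.7 and 55.5 CPM in MA, 49.2, 42.2 and 50.6 CPM in MetSA, and 65.3, 57.8 and 55.4 CPM in M. The IA libraries lay lowest and did not meet any other group, MetSA came next, and MA overlapped M. Idh2 fell after IA by 0.70 on the log2 scale (SE 0.08, adjusted p = 6.66e-07; edgeR's quasi-likelihood F test, Benjamini-Hochberg over all genes). It fell after MetSA by 0.33 (SE 0.08, adjusted p = 0.00393 by edgeR), and by 0.379 without MetSA replicate 3 (adjusted p = 0.00176). After MA it was not called (log2 fold change -0.08, 95% interval -0.24 to 0.08). Even so, 9.71% of genes tested had a lower log2 fold change than Idh2 after IA. The gene lies on the minus strand of chromosome 7 from 80094846 to 80115392 (mm10).

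The 250 bases before the RefSeq transcription start are shown for Idh2 and Fh1, which fell after IA, and for Cs, which was not called in any comparison, to set called genes beside a gene that was not. They are chr7:80115351-80115600 (minus strand), chr1:175625636-175625885 (minus strand) and chr10:128337477-128337726 (plus strand) in mm10 (GRCm38.p6), written 5′ to 3′. Capitals mark matches on either strand to CCAAT, the NF-Y box, and GGGCGG, the SP1 box, which do not overlap each other.
Idh2: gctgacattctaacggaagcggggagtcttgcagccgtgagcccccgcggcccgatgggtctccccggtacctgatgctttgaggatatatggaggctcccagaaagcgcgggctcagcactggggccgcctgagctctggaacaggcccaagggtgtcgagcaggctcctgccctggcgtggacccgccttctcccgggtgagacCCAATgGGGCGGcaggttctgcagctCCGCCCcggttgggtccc
Fh1: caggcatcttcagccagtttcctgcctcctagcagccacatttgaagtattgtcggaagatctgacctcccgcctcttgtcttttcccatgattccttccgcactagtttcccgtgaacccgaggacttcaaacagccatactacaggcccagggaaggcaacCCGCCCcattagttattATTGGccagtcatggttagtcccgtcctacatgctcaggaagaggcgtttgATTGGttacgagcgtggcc
Cs: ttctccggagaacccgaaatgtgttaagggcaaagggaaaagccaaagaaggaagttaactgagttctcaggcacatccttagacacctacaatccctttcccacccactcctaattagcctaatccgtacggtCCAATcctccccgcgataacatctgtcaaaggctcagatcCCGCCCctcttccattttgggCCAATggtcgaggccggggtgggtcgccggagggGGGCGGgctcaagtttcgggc
Idh2 held 1 CCAAT and 2 GGGCGG matches, Fh1 held 2 and 1, and Cs held 2 and 2. CCAAT occurred in 33.8% and GGGCGG in 32.7% of the 32851 promoter windows of that length. Also searched on both strands were AAGGTCA, a site of oestrogen-related receptors (4.08% of windows), the core motif of NRF1 (4.98%), and CCGGAAG, the ETS and GABPA core (6.91%). None of these motifs occurred in the windows of Idh2, Fh1 or Cs, and CCGGAAG occurred once in that of Idh3g. RefSeq promoter windows were matched for 8 of the 9 members. The motifs were chosen with the expression results known, and the matches describe the letters only.

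Citrate synthase, encoded by Cs, condenses acetyl-CoA with oxaloacetate and is often used as a measure of mitochondrial mass. Cs had 173.1, 174.4 and 166.0 CPM in IA, 168.0, 162.2 and 158.0 CPM in MA, 153.5, 158.1 and 165.3 CPM in MetSA, and 169.8, 157.4 and 161.0 CPM in M. The gene lies on the plus strand of chromosome 10 from 128337734 to 128362479. All groups overlapped M, while IA lay above MetSA without overlap. Its log2 fold change was 0.07 after IA (95% interval -0.05 to 0.19), 0.00 after MA (-0.12 to 0.12) and -0.03 after MetSA (-0.15 to 0.08), or -0.06 without MetSA replicate 3, and no comparison called it.

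NAD-dependent isocitrate dehydrogenase is a complex of a catalytic alpha subunit with beta and gamma subunits, which are regulatory. Its alpha subunit alone was called. Idh3a had 24.02, 23.4 and 21.1 CPM in IA, 29.4, 30.1 and 27.6 CPM in MA, 24.99, 20.7 and 24.7 CPM in MetSA, and 34.3, 30.4 and 29.9 CPM in M. All IA and MetSA libraries lay below all M and MA libraries, and MA and M overlapped. Idh3a fell by 0.46 after IA (SE 0.09, adjusted p = 0.000328 by edgeR) and by 0.425 after MetSA (SE 0.09, adjusted p = 0.00128), or by 0.46 without MetSA replicate 3. After MA the log2 fold change was -0.12 (95% interval -0.30 to 0.06). Idh3a lies on the plus strand of chromosome 9 from 54586334 to 54604661.

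Idh3b, the beta subunit, had 77.2, 76.6 and 82.5 CPM in IA, 68.3, 77.3 and 89.6 CPM in MA, 78.5, 79.9 and 83.4 CPM in MetSA, and 72.8, 78.4 and 87.0 CPM in M. The M and MA libraries spread widely, and replicate 3 was highest in each of the 4 groups. Idh3g, the gamma subunit, had 57.0, 61.7 and 64.1 CPM in IA, 65.0, 67.5 and 68.1 CPM in MA, 64.6, 67.5 and 66.6 CPM in MetSA, and 62.9, 65.5 and 72.3 CPM in M. IA lay below MA and MetSA but overlapped M. Idh3b lies on the minus strand of chromosome 2 from 130279309 to 130284547, and Idh3g on the minus strand of chromosome X from 73778963 to 73786897. For Idh3b the log2 fold changes were -0.01 after IA (95% interval -0.19 to 0.17), -0.02 after MA and 0.02 after MetSA, or 0.00 without MetSA replicate 3. For Idh3g they were -0.14 after IA (-0.27 to 0.00, adjusted p = 0.116 by edgeR), 0.00 after MA and -0.01 after MetSA, or -0.02 without MetSA replicate 3. Idh3g was called lower after IA with upper-quartile scaling (-0.225, adjusted p = 0.0124).

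The ratio of alpha to beta subunit mRNA, taken within each library, was 0.311, 0.306 and 0.256 in IA, 0.431, 0.390 and 0.308 in MA, 0.318, 0.260 and 0.296 in MetSA, and 0.470, 0.388 and 0.343 in M. IA and MetSA lay below M without overlap, while MA overlapped all groups. The log2 difference was -0.45 after IA and -0.45 after MetSA, each with p = 0.1 in a two-sided exact permutation test. This is the smallest p that 3 against 3 libraries allow, and the test did not pair libraries by replicate number. The ratio of alpha to gamma gave -0.33 after IA (exact p = 0.2) and -0.415 after MetSA (exact p = 0.1). Without MetSA replicate 3 the log2 difference after MetSA was -0.47 for alpha over beta and -0.45 for alpha over gamma. Beta over gamma lay higher in IA (1.36, 1.24 and 1.29) than in M (1.16, 1.196 and 1.204), a log2 difference of 0.13 (exact p = 0.1). These 3 ratios come from 5 computed, each in 6 comparisons, and none could pass a threshold of 0.05 at this size. A ratio shows unequal change and not that a subunit stayed constant.

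**Figure D2:**
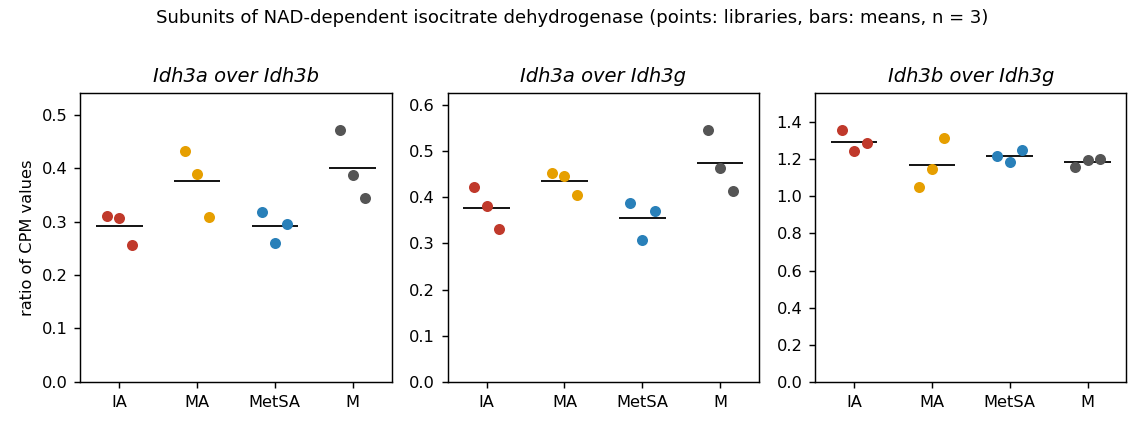
Ratios of CPM values between the subunits of NAD-dependent isocitrate dehydrogenase (y axes, from 0) in the libraries of IA, MA, MetSA and M (x axis). Points are libraries and bars are means (n = 3). Alpha over beta averages 0.291 in IA and 0.291 in MetSA against 0.400 in M.

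Ogdh and Dlst encode the E1 and E2 parts of the 2-oxoglutarate dehydrogenase complex, which makes succinyl-CoA. Ogdh had 194.3, 194.7 and 188.0 CPM in IA, 186.1, 169.2 and 165.2 CPM in MA, 160.8, 164.9 and 159.9 CPM in MetSA, and 190.7, 177.0 and 160.9 CPM in M. The M libraries spanned nearly the whole range, so that neither IA nor MetSA stood clear of them. Against M it was not called after IA (log2 fold change 0.13, 95% interval -0.01 to 0.26), MA (-0.02, -0.16 to 0.12) or MetSA (-0.12, -0.26 to 0.01; -0.11 without MetSA replicate 3). It was called higher after IA without M replicate 1 (0.19, adjusted p = 0.0481) and lower after MetSA with upper-quartile scaling (-0.18, adjusted p = 0.0399). Ogdh lies on the plus strand of chromosome 11 from 6291633 to 6356642.

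Dlst, the succinyltransferase, was the steadiest member. It had 102.1, 99.1 and 97.3 CPM in IA, 100.3, 98.6 and 100.9 CPM in MA, 96.5, 97.1 and 107.6 CPM in MetSA, and 98.1, 98.4 and 100.3 CPM in M. The highest value was that of MetSA replicate 3, and all groups overlapped. Dlst lies on the plus strand of chromosome 12 from 85110833 to 85134845. Its log2 fold changes were 0.01 after IA (95% interval -0.11 to 0.13), 0.01 after MA and 0.02 after MetSA, or -0.03 without MetSA replicate 3.

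Fh1, fumarase, which hydrates fumarate to malate, was the only member called after MA. It had 28.3, 33.0 and 29.3 CPM in IA, 31.3, 32.1 and 32.8 CPM in MA, 31.1, 35.5 and 38.4 CPM in MetSA, and 35.5, 40.7 and 39.7 CPM in M. IA and MA lay below M without overlap, and MetSA overlapped IA, MA and M. Fh1 fell by 0.36 after IA (SE 0.08, adjusted p = 0.00257 by edgeR) and by 0.27 after MA (SE 0.08, adjusted p = 0.0282). The MA call was lost without MA replicate 1, 2 or 3, M replicate 2 or 3, or IA replicate 3, at adjusted p values of 0.0523 to 0.115. After MetSA the log2 fold change was -0.14 (95% interval -0.32 to 0.04, adjusted p = 0.265 by edgeR), and -0.21 without MetSA replicate 3 (-0.39 to -0.03, adjusted p = 0.0932). Fh1 lies on the minus strand of chromosome 1 from 175600374 to 175625635.

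Mdh2, the mitochondrial malate dehydrogenase, closes the cycle. It had 80.9, 83.1 and 84.0 CPM in IA, 88.0, 89.8 and 87.7 CPM in MA, 87.9, 81.9 and 96.9 CPM in MetSA, and 92.1, 97.2 and 92.2 CPM in M. IA and MA lay below M without overlap, whereas MetSA spread across the other groups. Mdh2 fell by 0.18 after IA (SE 0.06, adjusted p = 0.0296 by edgeR). That call was lost without IA replicate 1 (adjusted p = 0.0978), IA replicate 2 (0.068), IA replicate 3 (0.112) or M replicate 2 (0.106), and with no filter on low counts (0.0704). The log2 fold change was -0.08 after MA (95% interval -0.22 to 0.05) and -0.08 after MetSA (-0.21 to 0.05), or -0.14 without MetSA replicate 3 (-0.27 to -0.02, adjusted p = 0.107 by edgeR). Mdh2 lies on the plus strand of chromosome 5 from 135778480 to 135790398.

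**Figure D3:**
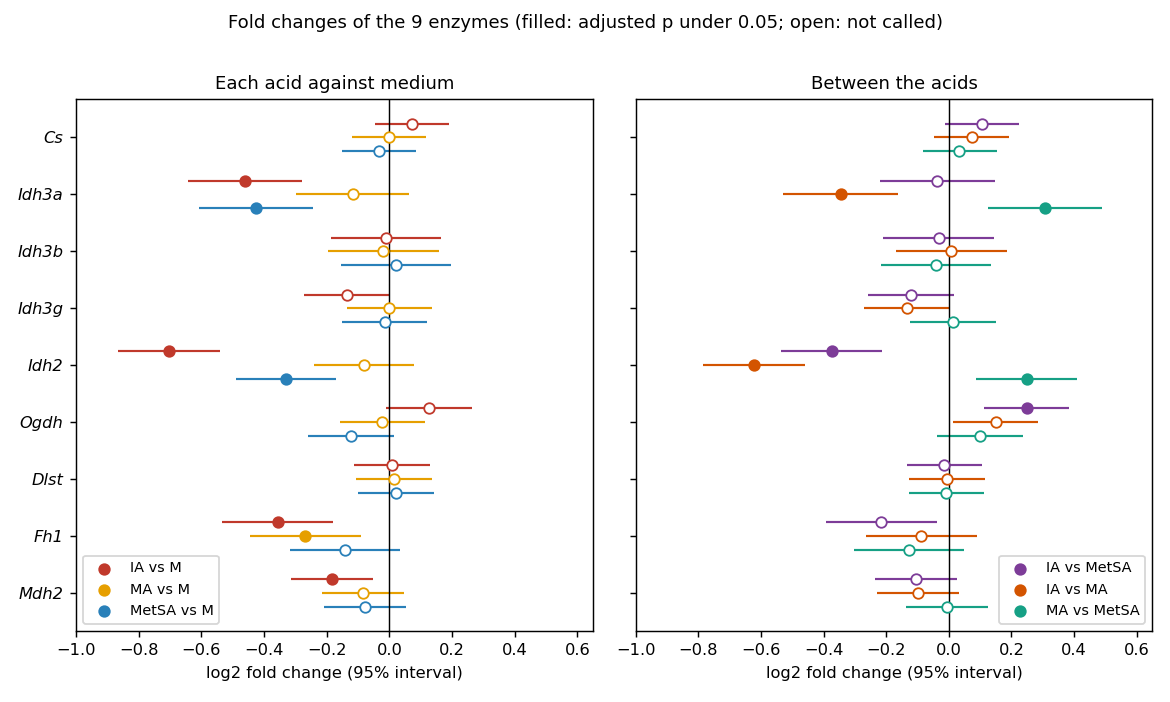
Log2 fold changes (x axis) of the 9 enzymes (y axis), each acid against M on the left and acid against acid on the right, from the edgeR fit. Whiskers are 95% intervals, filled points are called at an adjusted p under 0.05 and open points are not. Idh2 and Idh3a are called after IA and MetSA, and intervals of Cs, Idh3b and Dlst span 0 in each of the 6 comparisons.

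The acids were given at the same dose and time, so they were compared directly in all 3 pairs. IA and MetSA, which differ by the double bond, differed in Idh2 and Ogdh. In this pair 2 of 9 members were called, where 6.12% of all genes were (3.97% higher, 2.15% lower). Idh2 was lower after IA than after MetSA by 0.37 (SE 0.08, adjusted p = 0.00708 by edgeR), or by 0.32 without MetSA replicate 3 (adjusted p = 0.0305). Ogdh was higher after IA by 0.25 (SE 0.07, adjusted p = 0.0287), with no overlap of the libraries. The Ogdh call was lost without any one of IA replicates 1 to 3 or MetSA replicate 1 or 3, at adjusted p values of 0.0551 to 0.0961. Idh3a gave -0.04 between the same acids, with a 95% interval of -0.22 to 0.15. The interval was -0.24 to 0.03 for Mdh2 and -0.39 to -0.04 for Fh1, which was not called (adjusted p = 0.145 by edgeR). Without MetSA replicate 3 it was -0.17 to 0.09 for Mdh2 (log2 difference -0.04) and -0.33 to 0.04 for Fh1 (-0.14). Leaving out MetSA replicate 1 instead, Fh1 was called lower after IA than after MetSA (-0.293, adjusted p = 0.0466 by edgeR).

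IA and MA, which differ in chain length as well as in the double bond, differed in Idh2 and Idh3a, 2 of 9 members, where 34.6% of all genes were called (17.8% higher, 16.8% lower). Idh2 was lower after IA by 0.62 (SE 0.08, adjusted p = 2.57e-06 by edgeR) and Idh3a by 0.35 (SE 0.09, adjusted p = 0.00406). Ogdh gave 0.15 (95% interval 0.01 to 0.28, adjusted p = 0.087) and passed the test with the replicate number as a block (adjusted p = 0.036), with only IA and MA in the fit (0.0241) and without MA replicate 1 (0.0394). With upper-quartile scaling 4 members were lower after IA than after MA, Idh3g and Mdh2 being the others. For Fh1 the difference was -0.09 (-0.26 to 0.09).

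MA and MetSA differed in the same pair of genes, again 2 of 9, where 26.4% of all genes were called (11.6% higher, 14.7% lower). Idh3a was higher after MA by 0.31 (SE 0.09, adjusted p = 0.0116 by edgeR) and Idh2 by 0.25 (SE 0.08, adjusted p = 0.0205). The Idh3a call was lost without MA replicate 2 or MetSA replicate 2, and the Idh2 call without MA replicate 1 or MetSA replicate 2, at adjusted p values of 0.0509 to 0.119. Without MetSA replicate 3 both calls held, at 0.35 for Idh3a (adjusted p = 0.00924) and 0.30 for Idh2 (adjusted p = 0.00886). The remaining 7 members were not called. Fh1 gave -0.13 (95% interval -0.30 to 0.05), or -0.06 without MetSA replicate 3.

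Counts called in the companion lists below stand beside shares over all genes of 35.2% after IA, 20.3% after MA and 21.2% after MetSA. Further enzymes of the cycle included the succinyl-CoA ligase genes Suclg1, Suclg2 and Sucla2, and Dld, the E3 part shared by several dehydrogenase complexes. After IA 1 of these 4 fell and 1 rose, and after MA and MetSA none was called. Suclg2, the beta subunit of the GDP-forming ligase, fell to 23.8 ± 1.39 CPM in IA, against 32.1 ± 1.17 CPM in M (SD, n = 3 each; log2 fold change -0.43, SE 0.08, adjusted p = 0.000271 by edgeR). Sucla2, its ADP-forming counterpart, was at 43.7 CPM in IA and 40.6 CPM in M (0.10, 95% interval -0.05 to 0.26). Dld rose by 0.17 after IA (adjusted p = 0.0288), a call lost with upper-quartile scaling, which also brought a fall of Suclg1. The 4 subunits of succinate dehydrogenase were not called against M in any of these comparisons, with median log2 fold changes of 0.082 after IA, 0.035 after MA and 0.106 after MetSA. Sdhb was called higher after IA with RLE scaling, with DESeq2 and with the replicate number as a block (0.16 to 0.18).

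Of 5 isoenzymes and paralogues outside the cycle, 3 fell after IA and none rose, after MA 2 rose and none fell, and after MetSA 1 fell. Idh1, the cytosolic NADP-dependent isocitrate dehydrogenase, averaged 210.4 CPM in IA, 289.0 CPM in MA and 246.4 CPM in M. Its log2 fold change was -0.23 after IA (SE 0.07, adjusted p = 0.0145 by edgeR) and 0.23 after MA (SE 0.07, adjusted p = 0.0227). Aco1, the cytosolic aconitase that also acts as an iron sensor, fell by 0.28 after IA and by 0.22 after MetSA (0.31 without MetSA replicate 3). Dhtkd1, a dehydrogenase subunit of lysine breakdown, was low, at 0.341 CPM in IA against 0.989 CPM in M (-1.54, SE 0.42, adjusted p = 0.0073 by edgeR). Mdh1, the cytosolic malate dehydrogenase, rose by 0.21 after MA (adjusted p = 0.0404), but not with upper-quartile scaling (adjusted p = 0.0589).

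Among 12 tested genes of pyruvate entry, IA had 1 higher and 2 lower, MA had 2 higher and 1 lower, and MetSA had 1 higher. Pdk1, a kinase that switches off pyruvate dehydrogenase, fell by 0.53 after IA (SE 0.07, adjusted p = 6.25e-06 by edgeR) and by 0.44 after MA (SE 0.07, adjusted p = 9.21e-05). Pdk2, a kinase of the same family, fell by 0.34 after IA (adjusted p = 0.029). Pdp2, a phosphatase that switches the complex on, rose by 0.46 after IA (adjusted p = 0.00166). Mpc1, a subunit of the mitochondrial pyruvate carrier, rose to 10.95 CPM in MA, against 7.29 CPM in M (0.59, SE 0.12, adjusted p = 0.00108), and Pdha1, a subunit of pyruvate dehydrogenase, rose by 0.25. Pdk3, another kinase of the complex, rose by 0.52 after MetSA (adjusted p = 0.00443), or by 0.485 without MetSA replicate 3. Leaving out that library, MetSA had 2 higher and 1 lower of 13 tested.

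Among 14 tested genes of anaplerosis and carriers, 3 rose and 4 fell after IA, 3 rose and 3 fell after MA, and 3 rose and 1 fell after MetSA. With upper-quartile scaling 2 rose and 8 fell after IA, 2 rose and 3 fell after MA, and 3 rose and 6 fell after MetSA. Without MetSA replicate 3, 3 rose and 2 fell after MetSA, of 15 tested. The paralogous aspartate-glutamate carriers of the inner membrane had opposite signs after IA and MetSA. Slc25a12 rose by 0.64 after IA (SE 0.08, adjusted p = 2.26e-06 by edgeR) and by 0.31 after MetSA (adjusted p = 0.0071). Slc25a13 fell by 0.57 after IA, 0.44 after MA and 0.51 after MetSA (adjusted p = 2.38e-05, 0.000688 and 0.000164). The aspartate aminotransferase Got1 rose by 0.34 after IA, 0.21 after MA and 0.30 after MetSA, and its mitochondrial counterpart Got2 rose by 0.20 after MA (adjusted p = 0.0168 by edgeR). Slc25a10, the dicarboxylate carrier, rose by 0.26 after MetSA. Without MetSA replicate 3 the log2 fold changes after MetSA were 0.33 for Slc25a12, -0.60 for Slc25a13, 0.33 for Got1 and 0.20 for Slc25a10, and all 4 were called. Pcx, pyruvate carboxylase, which feeds oxaloacetate into the cycle, fell to 1.64 CPM in IA and 1.99 CPM in MA, against 3.43 CPM in M (-1.06 and -0.79).

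Of 8 tested regulators of mitochondrial genes, Myc alone was called against M. It fell by 1.36 after IA, 0.69 after MA and 0.885 after MetSA (0.945 without MetSA replicate 3). Esrra, Nrf1, Gabpa and Tfam, factors that act on nuclear genes of mitochondria or on mitochondrial DNA, lay between -0.02 and 0.13 after the 3 acids and were not called. Among 10 other mitochondrial proteins (pores, import, chaperones, protease and prohibitins) 7 fell after IA, 3 fell after MetSA and 1 rose after MA, with medians of -0.21, -0.13 and -0.09. Over all genes 17.3% were lower after IA, 8.53% were lower after MetSA and 10.1% were higher after MA. With upper-quartile scaling 8 fell after IA and 6 after MetSA, and none was called after MA, and without MetSA replicate 3, 4 fell after MetSA. Hspd1, the matrix chaperonin, averaged 100.8 CPM in IA, 113.3 CPM in MetSA and 137.6 CPM in M, a log2 fold change of -0.45 after IA and -0.28 after MetSA (adjusted p = 6.86e-05 and 0.0085 by edgeR). Phb2, a prohibitin, fell by 0.32 after IA, and Vdac1, the outer membrane pore, also by 0.32. Tomm20, a receptor for imported proteins, fell by 0.24 after IA and 0.19 after MetSA and rose by 0.18 after MA (adjusted p = 0.0494 by edgeR), and Phb2 fell by 0.19 after MetSA. Without MetSA replicate 3 the falls after MetSA were 0.365 for Hspd1, 0.23 for Tomm20 and 0.23 for Phb2.

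**Figure D4:**
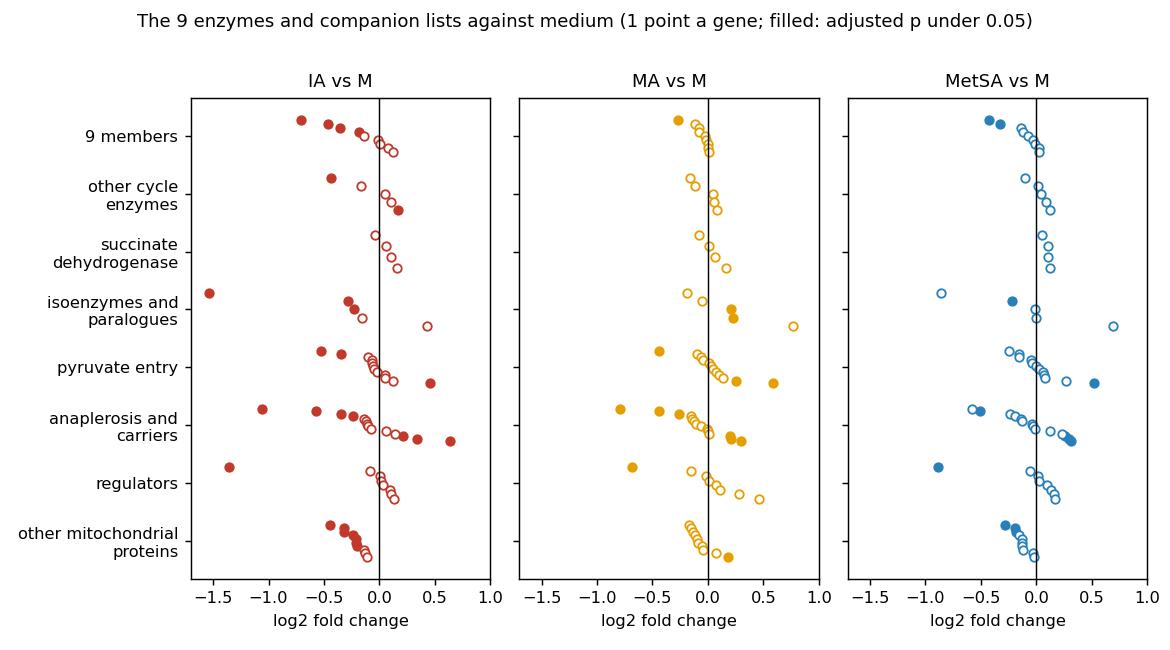
Log2 fold changes (x axis) against M after IA, MA and MetSA for the 9 enzymes and 7 companion lists (y axis), 1 point a gene, filled where the adjusted p is under 0.05. Succinate dehydrogenase has no filled point, while 7 of 10 other mitochondrial proteins are filled and below 0 after IA.

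For the 3 members with the smallest p in the test over all groups, the genes most like them were sought among 8174 others at 10 CPM or more. Likeness was the root mean square difference between centred log2 CPM values over 12 libraries. Nearest to Idh2 were Bub1b, a mitotic checkpoint kinase (0.07), Bri3bp (0.08) and Hmgn1, a nucleosome-binding protein (0.08), against a spread of Idh2 itself of 0.29. Nearest to Idh3a were Nomo1 (0.07), Elmo1 (0.08) and Hdac6 (0.08), against 0.22. Nearest to Fh1 were Thoc3 (0.06), Pip4k2a (0.06) and Aldh9a1 (0.06), against 0.16. Among pairs of members the closest was Cs with Dlst (0.06). Both were nearly flat, the highest library being 1.136 times the lowest for Cs and 1.115 times for Dlst. Their closeness therefore need not mean a shared pattern.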

How the data were processed

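The deposited table gives whole-number counts per gene, not normalised by the authors; STAR, featureCounts and mm10 are named in the submitters' processing notes, while the sources used here give no versions, annotation or strand setting. Columns were matched to samples by name, and 0 other columns were present. Of counts from 1 to 9, 66.1% were even, against 50.9% of counts of 1000 or more, so both mates of a pair may have been counted and depth in fragments may be lower. filterByExpr kept 14113 genes. The main test was edgeR 4.0.16 (R 4.3.3; TMM, robust glmQLFit, glmQLFTest) on all 12 libraries with 8 residual degrees of freedom, with calls at an adjusted p (Benjamini-Hochberg) under 0.05. Alternatives included DESeq2 1.42.0. The method was tested on simulated data in which a small set of genes changed in IA, in random directions. That test does not bear on the choice of scaling. Positions and exon lengths come from GENCODE M21 (mm10). No 100-base stretch of the members' transcripts occurred in another gene; exons of Nop56 on the other strand overlap 0.146% of Idh3b exon bases. Members, lists and tests were chosen with earlier results of these data known. By rule all 9 members were named, with up to 4 called genes per companion list with the smallest adjusted p in each comparison with M, other genes only as not called, and the 3 genes nearest to each of 3 members. Replicate pairs differed by more than counting noise (chi-square per degree of freedom 9.14 to 55.6). Some genes of the lists are not reported here.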

Additional observations from a re-analysis of the deposited data

How the results depend on the processing

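Of 1080 values of the members over 20 alternatives, 1051 kept their call or stayed uncalled, 20 lost a call, 9 gained one and 0 reversed a called direction. Of the uncalled, 53 changed sign, among them values of Cs, Idh3b and Dlst after IA. The falls of Idh2 after IA and MetSA, of Idh3a after IA and MetSA and of Fh1 after IA held in all 20, as did those of Idh2 and Idh3a in IA against MA and of Idh2 in IA against MetSA. In IA against MA, 4 members were called with upper-quartile scaling, against 2 with TMM. In IA against MetSA, 864 genes were called, against 1483 with no filter on low counts, 1348 with DESeq2, 1413 with the replicate number as a block and 575 with only these groups in the fit; the cause was not tested. Leaving out 1 library gave 420 to 974 genes there and 1 to 2 members, 0 to 1 members for MA against M and 0 to 2 for MA against MetSA. With upper-quartile scaling the share of calls that were higher was 54.2% in IA against MetSA (64.8% with TMM), 37.5% in IA against MA (51.5%) and 54.5% in MA against MetSA (44.1%). Leaving out MetSA replicate 3 for the lists and ratios was chosen after seeing the data. Same-numbered libraries of different groups correlated in their deviations from the group means at 0.012 to 0.169, with 2 of 18 pairs over 0.1. Differently numbered libraries correlated at -0.113 to 0.023. Deviations within a group sum to 0, so these low values follow in part from the higher same-numbered ones. The same-numbered values were small but all above 0, so libraries of a number may have had a little in common. The sources used here do not say what a number marks. The main fit left the number out, and a fit with it as a block was an alternative. With the block, 5507 genes were called in IA against M, where the main fit called 4961. Libraries mostly correlated best with their own number, but MetSA replicate 3 did so with IA replicate 2 (0.016) rather than IA replicate 3 (0.012). With 3 libraries a group, small differences in Cs, Idh3b and Dlst were not detectable beyond the intervals given.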
